A study of Mus musculus with 6 samples.

Results

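The vehicle-treated wild-type striatal line was compared with the vehicle-treated mutant striatal line, promoter by promoter, for trimethylation of histone H3 at lysine 4 (H3K4me3). The lists of H3K4me3 peaks labelled Q7SST and Q111SST, 2 of the 6 lists in the series, held 38392 and 40406 peaks. The members were the promoters of protein-coding genes: a promoter was called marked in a list when at least 1 peak lay within 1 kb of any start of a GENCODE vM21 protein-coding transcript. Of 21829 genes, 13347 were marked in at least 1 of the lists, 12116 in both, 780 in Q7SST only and 451 in Q111SST only.

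Q7SST cells were STHdhQ7 murine striatal progenitors with wild-type huntingtin, and Q111SST cells were STHdhQ111 progenitors, homozygous for a knock-in allele with an expanded polyglutamine tract. Both groups received DMSO vehicle for 24 h in medium without serum, and chromatin digested with micrococcal nuclease was precipitated with an antibody against H3K4me3. The other 4 lists came from STHdhQ111 cells given cyproheptadine, loxapine, meclizine or the diacylglycerol kinase inhibitor II (DKI), each at 10 uM for 24 h. Each condition had 1 list, so no spread between replicates could be measured and no test was run, and differences are given as counts, with the share over all promoters as the reference. Each genotype was 1 conditionally immortalized line, so that genotype and line cannot be told apart, and in bulk chromatin fewer marked cells and less mark per cell cannot be told apart either.

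H3K4me3 is laid down around the starts of active and poised genes by the SET1 and MLL methyltransferases, mostly at promoters rich in CpG dinucleotides, and broad domains of the mark often lie over genes that define the identity of a cell. Huntingtin is a large scaffold protein, and the expansion of its glutamine tract causes Huntington's disease, in which neurons of the striatum are lost. The strength of a promoter is given here as a percentile: the rank of its highest peak score among all peaks of the same list, from 0 to 100, with ties given the middle rank. Peak scores were compared only within a list, since their scale is not given in the sources used here, and the width of a promoter is that of its widest peak within 1 kb of a start.

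The 2 lists were close in most measures. The mark covered 41.0 Mb in Q7SST and 44.6 Mb in Q111SST, the median peak was 889 and 922 bp wide, and 59.1% and 57.6% of promoters were marked. The number of reads behind each list is unknown. Among promoters marked in both lists, the median difference in percentile, Q7SST minus Q111SST, was -1.05, and from 5 to 95% of promoters it ran from -16.9 to 15.5. The median width ratio was 0.973, with the same range from 0.628 to 1.53. A promoter was called higher in a line when its percentile was at least 20 points above that of the other, which held for 430 promoters in Q7SST (3.55%) and 454 in Q111SST (3.75%). With peaks at or above the median score this split became 533 to 1050, of which 93 and 150 were among the original 430 and 454, and with percentiles taken among marked promoters 1058 to 800. A promoter was called wider when its peak was at least 2 times as wide, which held for 322 promoters in Q7SST (2.66%) and 326 in Q111SST (2.69%). These became 130 and 168 with peaks at or above the median score, and 147 and 174 with peaks over the start. The strongest peaks of the lists overlapped at 97.4% of the promoters marked in both, at 92.1% and 93.2% of those higher in Q7SST and Q111SST, and at 92.2% and 91.7% of those wider.

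The labelled cell type was read from its defining promoters. Of 13 neural progenitor markers, 10 were marked in Q7SST and 8 in Q111SST. Msi1 and Prom1 were among those marked in Q7SST only, Sox2 was marked in Q111SST only, and Sox1 and Hes5 in neither. The Sox2 peak of Q111SST was 237 bp wide, and the nearest Q7SST peak lay 1352 bp from the start, beyond the 1 kb window. Of 14 markers of striatal (ganglionic eminence) identity, 12 were marked in Q7SST and 10 in Q111SST, and Isl1 was marked in neither. All 4 oligodendrocyte markers, among them Olig2 and Mbp, were unmarked in both, as were 3 of 4 astrocyte markers, with Gfap and Aqp4, and 4 of 5 microglia markers, with Ptprc and Csf1r. Of 5 endothelial markers, 1 was marked in Q7SST and 2 in Q111SST, with Tek in Q111SST only and Pecam1, Cdh5 and Cldn5 in neither. Of 10 mural and mesenchymal markers, 8 were marked in Q7SST and 7 in Q111SST. Acta2, at percentile 86.5, and Tagln were marked in Q7SST only, Col1a2 in Q111SST only, and Rgs5 in neither. In a longer list of 31 marked mesenchymal and smooth muscle genes, 6 were marked in Q7SST only (19.4%, against 5.84% of all). In Q111SST only there were 3 (9.68%, against 3.38%).

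Promoters marked in 1 line only were weaker than shared ones. They made up 5.84% (Q7SST only) and 3.38% (Q111SST only) of the promoters marked in either list, and their median percentile was 32.6 and 38.1, against 81.7 for promoters marked in both. Of those between percentiles 0 and 25, 272 of 501 were marked in Q7SST only and 150 in Q111SST only. Of those from 75 to 100, only 45 and 56 of 9079 were. When only peaks at or above the median score of each list were kept, the split of 780 to 451 became 607 to 592, and 225 of the 607 and 176 of the 592 were promoters of the original classes. For 631 of the 780 (80.9%) and 349 of the 451 (77.4%) the other list had no peak within 5 kb of a start.

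The lists of the compound-treated mutant cells took no part in choosing these promoters. Of the 780 promoters marked in Q7SST only, 609 were also unmarked in all 4 compound lists (78.1%). Of the 451 marked in Q111SST only, 206 were also marked in all 4 (45.7%, 95% Wilson interval 41.1 to 50.3, counting error only). For reference, 11507 of the 12116 promoters marked in both vehicle lists were marked in all 4, and 97.5% of those marked in neither were unmarked in all 4. Where a promoter is said to be in all 5 mutant lists or in none, Q111SST is one of the 5 and its state was part of the choice. Among those at or above percentile 50, the counts were 162 of 225 (72.0%) and 140 of 173 (80.9%). Of the 430 promoters higher in Q7SST, 200 were marked in all 4 compound lists, and 127 of these had a percentile nearer to Q111SST than to Q7SST in each. Of the 454 higher in Q111SST, 405 were marked in all 4 compound lists, and 167 of these did. The filter took out unequal parts of the 2 groups, so these counts cannot be compared with each other.

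**Figure D1:**
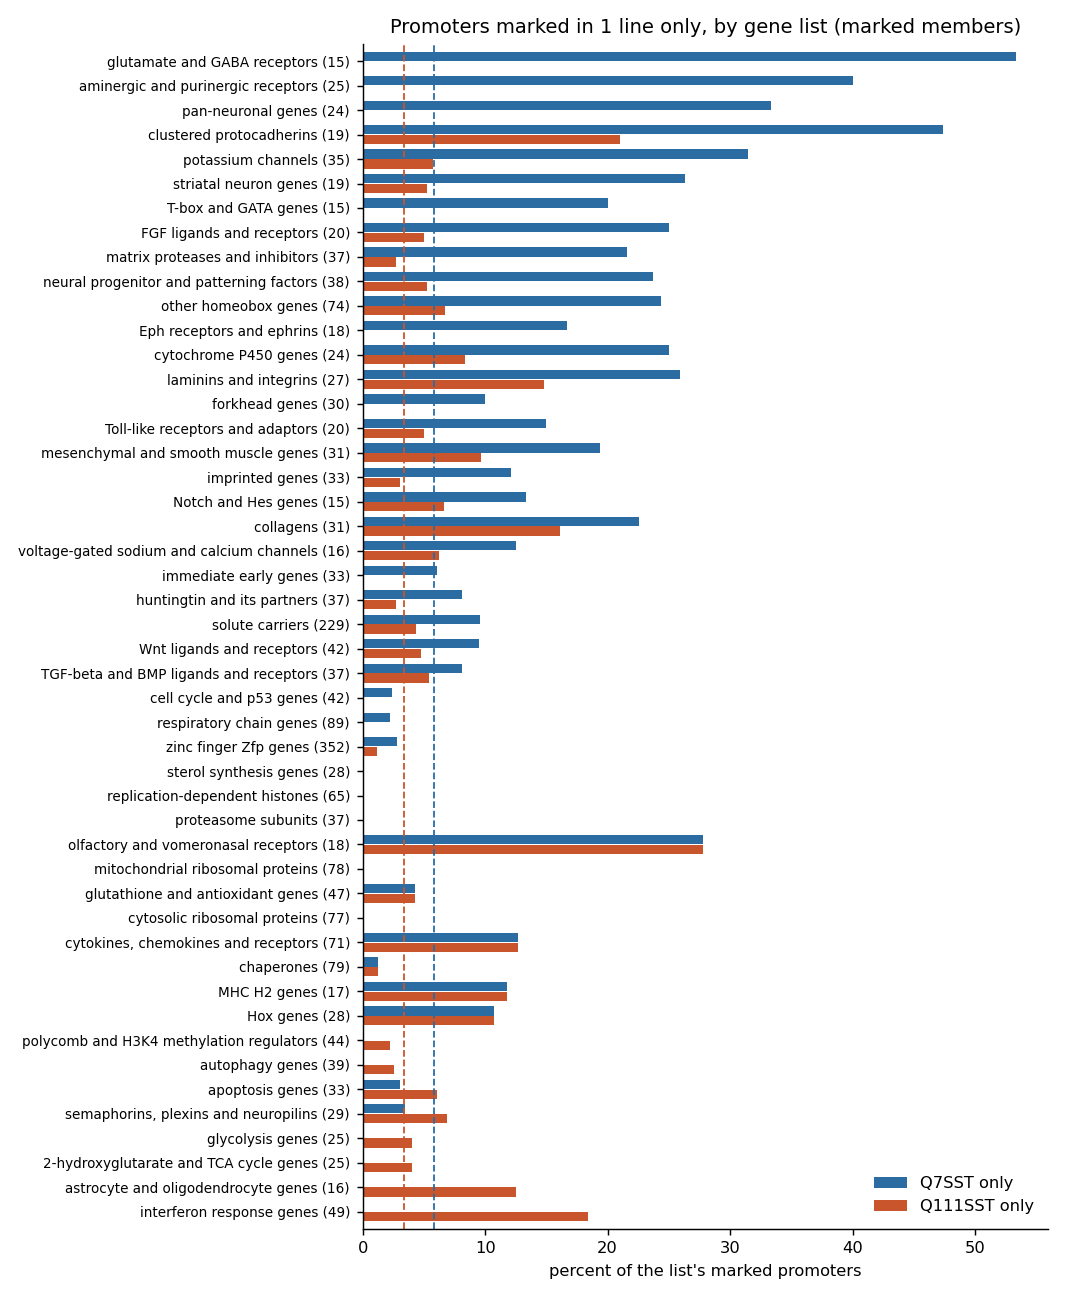
Percent of the marked members of each gene list (horizontal axis, member number in parentheses) that was marked in Q7SST only (blue bars) or Q111SST only (orange bars), for lists with at least 15 marked members. Dashed lines give the share over all promoters, 5.84% and 3.38%. The blue bars of receptor and neuronal lists pass the blue line, the interferon response list has an orange bar only, and ribosomal, proteasome and sterol lists are at 0 for both.

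The promoters of interferon response genes included 9 marked in Q111SST only and none in Q7SST only. These genes encode antiviral effectors and the sensors and factors that induce them. Of 49 marked members, 40 were marked in both lists, and the 9 were 18.4% (95% Wilson interval 9.98 to 31.4), against 3.38% of all promoters and 9.95% of CpG-poor ones, while 32.7% of this list was CpG-rich (a CpG count at least 0.6 times that expected from the C and G content). Among lists with at least 15 marked members, clustered protocadherins (4 of 19) and olfactory and vomeronasal receptors (5 of 18) had higher Q111SST-only shares, but also members marked in Q7SST only. Of the 40, 8 were higher in Q111SST (20.0%, against 3.75% of all) and 2 in Q7SST (5.00%, against 3.55%). With peaks over the start the 8 became 4. In width, 9 were wider in Q111SST (22.5%, against 2.69%) and 1 in Q7SST, with a median width ratio of 0.736. The core of the interferon-stimulated response element, GAAANNGAA, which is bound by interferon regulatory factors, was searched on both strands from 250 bases before to 50 after the start. It was present in 24 of the 49 promoters (49.0%), against 8.49% of all protein-coding transcript starts and 6.76% of all marked promoters. It was held by 10 of the 17 members that were marked in Q111SST only or higher there (58.8%), and by 14 of the other 32 (43.8%).

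The 150 bases before the start are shown for 6 of these genes from the GRCm38 assembly, which mm10 names, because all 6 promoters were marked in Q111SST only and they show from 0 to 4 copies of the core. Capitals mark each match, on either strand, and overlapping matches run together.
Isg15: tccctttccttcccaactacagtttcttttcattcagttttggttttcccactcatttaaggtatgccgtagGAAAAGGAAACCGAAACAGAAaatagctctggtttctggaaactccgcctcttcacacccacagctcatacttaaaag
Oas1a: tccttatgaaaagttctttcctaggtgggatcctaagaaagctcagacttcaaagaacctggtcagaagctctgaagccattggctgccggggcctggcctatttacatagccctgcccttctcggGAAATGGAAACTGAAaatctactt
Oas3: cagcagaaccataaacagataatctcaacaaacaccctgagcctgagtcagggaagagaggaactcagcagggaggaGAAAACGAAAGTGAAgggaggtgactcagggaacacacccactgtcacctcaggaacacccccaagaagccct
Zbp1: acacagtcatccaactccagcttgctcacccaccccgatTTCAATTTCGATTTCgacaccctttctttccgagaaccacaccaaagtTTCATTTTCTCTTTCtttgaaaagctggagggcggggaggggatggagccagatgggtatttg
Rsad2: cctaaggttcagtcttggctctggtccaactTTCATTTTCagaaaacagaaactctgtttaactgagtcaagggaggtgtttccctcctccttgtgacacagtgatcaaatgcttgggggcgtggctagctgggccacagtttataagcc
Mx1: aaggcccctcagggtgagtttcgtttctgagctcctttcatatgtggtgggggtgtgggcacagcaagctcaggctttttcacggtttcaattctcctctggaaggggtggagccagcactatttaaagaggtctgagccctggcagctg
In this window Isg15 (chr4:156200819-156200968, minus strand) held 3 matches, Oas1a (chr5:120907522-120907671, minus strand) and Oas3 (chr5:120777662-120777811, minus strand) 2 each, Zbp1 (chr2:173218911-173219060, minus strand) 4 and Rsad2 (chr12:26456453-26456602, minus strand) 1. Mx1 (chr16:97462907-97463056, minus strand) held none, which says only that these letters are not in this window. Of the promoters marked in Q111SST only that are not shown, Oas1g held 2 matches in its 150 bases, and Dhx58 and Oasl1 held none. Ifi44 and Oasl2, which were marked in both lists and higher in Q111SST, held none in the 300 bases searched.

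Among the effectors, Oas1a encodes an oligoadenylate synthetase that activates RNase L on double-stranded RNA. It had no peak in Q7SST, where the nearest peak lay 94292 bp away, and a peak of 1593 bp at chr5:120906382-120907974 in Q111SST, at percentile 90.9. All 5 mutant lists held it, and its percentile was lowest with cyproheptadine (67.1) and highest, among the compounds, with meclizine (89.5). Its neighbour Oas1g was at 68.0 in Q111SST and between 51.7 and 64.9 in the compound lists. Both are paralogs with close sequence, and how reads that map to several places were treated is not given in the sources used here.

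Isg15 encodes a ubiquitin-like protein that is joined to other proteins in antiviral defence. Its promoter was at percentile 59.0 in Q111SST with a peak of 2558 bp, and at 65.8, 64.5, 61.3 and 63.6 with cyproheptadine, loxapine, DKI and meclizine. The nearest Q7SST peak lay 2112 bp from its start. Rsad2, which encodes the antiviral enzyme viperin, was at 51.5 in Q111SST, and the nearest Q7SST peak lay 12552 bp away. Dhx58, a regulator of RNA sensing, was at 71.1 in Q111SST with a peak of 2221 bp, although Q7SST had a peak 1194 bp from its start.

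Mx1, which encodes a GTPase that blocks virus replication, was at percentile 36.8 in Q111SST and was unmarked with cyproheptadine and DKI. Zbp1, a sensor of Z-form nucleic acid, was at 32.4 and also lacked the mark with those compounds. Oas3 was at 20.6 in Q111SST and was unmarked with DKI and meclizine, with a wild-type peak 1056 bp away from it. Oasl1 was at 24.2 in Q111SST but at 88.9 with cyproheptadine and 76.3 with DKI, so its rank varied more within the mutant line than for the others. The 9 members thus fell into 6 marked in all 5 mutant lists and 3 marked in 3 of them. For 4 of the 9 (Isg15, Dhx58, Oas3 and Oasl1) the wild-type list held a peak within 5 kb.

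Among members marked in both lists, Oasl2 differed most. It was at percentile 2.76 in Q7SST, with a peak of 197 bp, the narrowest width in that list, and at 84.0 in Q111SST, with a peak of 2252 bp. The compound lists had it at 68.4, 74.8, 71.0 and 79.5, with cyproheptadine, loxapine, DKI and meclizine, each far nearer to Q111SST. Ifi44, an interferon-induced gene on chromosome 3, went from percentile 34.0 and 271 bp in Q7SST to 93.2 and 1750 bp in Q111SST. It lay between 74.9 and 92.6 in the compound lists.

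Some members differed more in width than in rank. Ifit1 and Ifit3 encode proteins that bind foreign RNA. At Ifit1 the percentile was 59.6 and 68.0, but the peak was 605 bp wide in Q7SST and 2946 bp in Q111SST, and 2629 to 3149 bp in the compound lists. At Ifit3 the percentile was 68.1 and 80.7, and the peak was 993 bp in Q7SST and 3130 bp in Q111SST. Usp18, which encodes the enzyme that removes Isg15, was at percentiles 93.9 and 93.7 with peaks of 1201 and 2606 bp.

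The list did not move as a block. Bst2, which encodes the tethering factor that holds virus particles at the cell surface, was at percentile 86.2 in Q7SST and 59.0 in Q111SST. Ifih1, the RNA sensor MDA5, was at 78.7 in Q7SST and 49.9 in Q111SST, and yet its peak was 995 bp wide in Q7SST and 2562 bp in Q111SST. Upstream factors of the pathway also varied: the difference, Q7SST minus Q111SST, was 6.37 points for Stat2, -7.69 for Irf9 and 0.0902 for Irf1, but -25.4 for Irf5, -23.2 for Irf8, -27.4 for Trim25 and -19.3 for Mavs. The receptor genes Ifnar1 and Ifnar2 differed by -6.80 and -4.69 points.

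**Figure D2:**
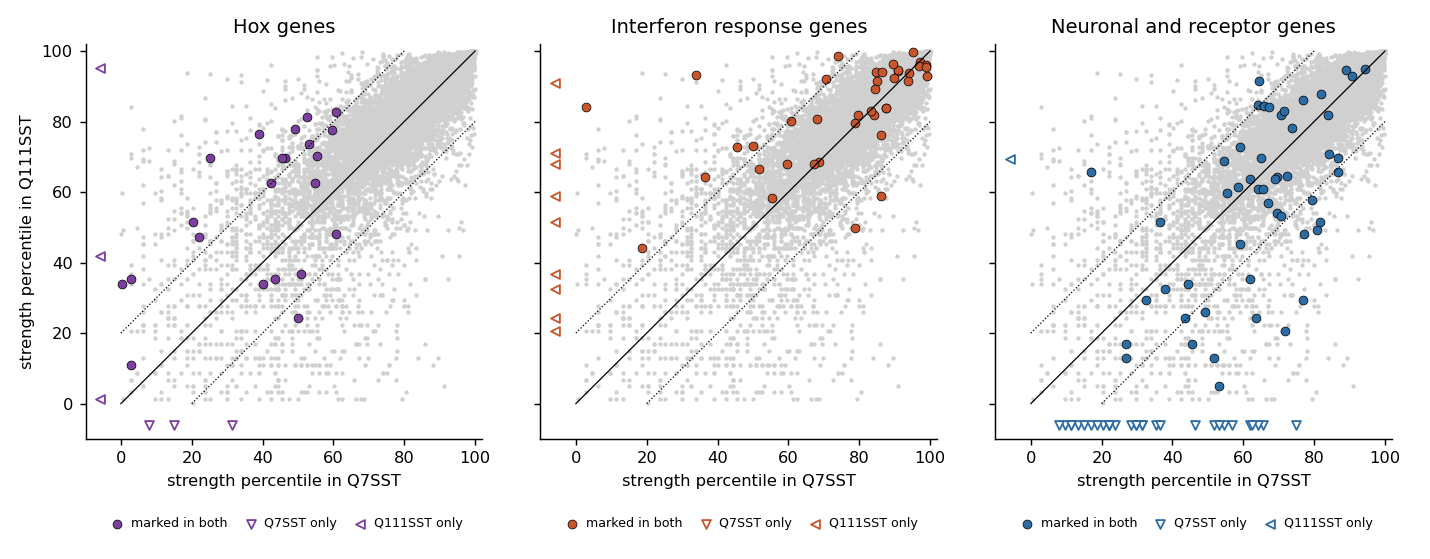
Strength percentile in Q111SST (vertical) against Q7SST (horizontal) for Hox, interferon response and neuronal or receptor promoters, with all promoters marked in both lists in grey. Dotted lines lie 20 points from equality, and triangles below or left of 0 mark promoters of 1 list only. Most Hox circles lie above the diagonal, interferon triangles lie on the Q111SST side only, and 30 neuronal or receptor triangles lie on the Q7SST side against 1 on the other.

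Genes of innate immunity outside the interferon list differed in both directions. Of 71 marked cytokine, chemokine and receptor genes, 9 were marked in each line only (12.7% each, against 5.84% of all in Q7SST and 3.38% in Q111SST). At or above percentile 50 the counts were 1 of 52 in Q7SST only (1.92%, against 1.88% of all) and 5 in Q111SST only (9.62%, against 1.44%). From 50 to 75 the shares over all promoters were 6.20% and 4.03%. Of the 53 marked in both lists, 7 were higher in Q111SST and 1 in Q7SST (3.75% and 3.55% of all), and 7 were wider in Q111SST and 1 in Q7SST (2.69% and 2.66% of all). Ccl7, which encodes a chemokine for monocytes, was at percentile 18.6 in Q7SST and 73.6 in Q111SST, and between 49.9 and 84.0 in the compound lists. Tnfrsf1b, which encodes a receptor for tumour necrosis factor, was at 40.1 in Q7SST and 88.6 in Q111SST, and between 82.1 and 95.4 with compounds. The compound lists lay on the mutant side for both. Cd14, a co-receptor for lipopolysaccharide, was at 50.0 and 92.0, with peaks of 1706 and 1701 bp, so that its rank differed and its width did not. Tlr2, which pairs with other Toll-like receptors to bind lipopeptides, was at 29.8 in Q7SST and 77.3 in Q111SST. Its partners Tlr1 and Tlr6, which are neighbours and paralogs, went the other way: they were marked in Q7SST only, at 99.3 and 99.5, and in no mutant list. Of 20 marked Toll-like receptor and adaptor genes, 3 were marked in Q7SST only (5.84% of all), all in no mutant list, and 1 in Q111SST only, while 3 were higher in Q111SST and 0 in Q7SST. Of the 451 promoters marked in Q111SST only, Lgals9, which encodes a lectin secreted by many cells, was at 92.0 and between 71.5 and 88.3 in the compound lists, with no Q7SST peak within 96895 bp.

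Neuronal and receptor genes showed the opposite pattern. In 4 lists pooled (pan-neuronal genes, striatal neuron genes, aminergic and purinergic receptors, and glutamate and GABA receptors), 82 of 174 genes were marked in either line: 51 in both, 30 in Q7SST only (36.6%, against 5.84% of all) and 1 in Q111SST only (1.22%, against 3.38%). Of the 30, 25 were unmarked in all 5 mutant lists, against 609 of 780 (78.1%) over all Q7SST-only promoters. Of the 51, 13 were higher in Q7SST (25.5%, against 3.55% of all) and 3 in Q111SST (5.88%, against 3.75%). Most of the 30 were weak, and among the 53 genes at or above percentile 50 in either line, 9 were marked in Q7SST only, against 225 of 11982 (1.88%) over all promoters at that strength. With peaks at or above the median score, the Q7SST-only counts fell from 10 to 5 for aminergic and purinergic receptors, from 8 to 3 for glutamate and GABA receptors and from 8 to 4 for pan-neuronal genes, and went from 5 to 6 for striatal neuron genes.

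Ligand-gated channels for glutamate carry fast excitation in the brain. All 4 AMPA receptor subunits, Gria1, Gria2, Gria3 and Gria4, were marked in Q7SST only and in no mutant list, at percentiles 20.4, 15.1, 22.1 and 22.1. Their peaks were 326, 916, 1513 and 1649 bp wide. Of the GABA receptor subunits, Gabrb1 was marked in Q7SST only, at 61.9, and Gabrb2 was at 79.4 in Q7SST and 57.6 in Q111SST. The kainate receptor subunit Grik2 went the other way, from 16.9 in Q7SST to 65.6 in Q111SST.

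Of the receptors for amines and purines, the serotonin receptor gene Htr2a was marked in Q7SST only among the vehicle lists, at percentile 74.9 with a peak of 2312 bp. It was found in 1 mutant list, with meclizine, at 17.1. Htr1b, which inhibits transmitter release, was at 71.9 in Q7SST and 20.6 in Q111SST, and its peak was 1602 and 315 bp wide. The adenosine receptor genes Adora1 and Adora2a were marked in Q7SST only, at 62.5 and 28.3, and in no mutant list. The adrenergic receptor genes Adra2b and Adrb3 were at 53.2 and 76.8 in Q7SST and at 4.91 and 29.3 in Q111SST.

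Of 19 marked genes of striatal projection neurons, 5 were marked in Q7SST only (26.3%, against 5.84% of all) and 1 in Q111SST only (5.26%, against 3.38%). Bcl11b, which encodes the transcription factor CTIP2 of these neurons, was marked in Q7SST at chr12:108003142-108004450, at percentile 54.7, and in no mutant list, where the nearest Q111SST peak lay 50586 bp away. Penk, the precursor of enkephalin in neurons of the indirect pathway, was at 63.5 in Q7SST and 24.2 in Q111SST, and was at 3.80 with cyproheptadine, 37.4 with DKI, 5.91 with meclizine and unmarked with loxapine. Rgs9, a brake on G protein signalling in the striatum, was at 80.8 and 49.1. Ppp1r1b, which encodes DARPP-32, was at 49.1 in Q7SST and 25.9 in Q111SST. Tac1, the precursor of substance P, and the cannabinoid receptor gene Cnr1 were marked in Q7SST only, at 35.2 and 51.7. In the other direction, Zfp503 was marked in Q111SST only, at 69.3, and Foxp1, a forkhead factor, was at 64.0 in Q7SST and 84.6 in Q111SST. Foxp2 was at 36.5 in Q7SST and 51.5 in Q111SST, with peaks of 683 and 2810 bp. Ikzf2 and Sp8 also ranked above their Q7SST percentile in Q111SST, by less than 20 points.

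Of the pan-neuronal genes, the synaptic vesicle gene Syp was marked in Q7SST only at percentile 64.0, the neurexin gene Nrxn3 at 56.7, and the neurofilament genes Nefl and Nefm at 29.8 and 36.5. Stmn2, which encodes a regulator of microtubules in growing neurites, was at 51.7 in Q7SST and 12.9 in Q111SST. Dlg4, the scaffold PSD-95, was higher in Q111SST, at 91.4 against 64.5, although its peak was wider in Q7SST, at 2957 against 1171 bp. Among huntingtin and its partners, 33 of 37 marked genes were marked in both lists. In Q7SST only there were 3 (8.11%, against 5.84% of all) and in Q111SST only 1 (2.70%, against 3.38%). Of the 33, 1 was higher in each line (3.03% each, against 3.55% and 3.75%). The kinesin gene Kif5c was at 60.8 in Q7SST and 8.76 in Q111SST, with peaks of 2362 and 438 bp, and Ifi27 was at 36.5 and 64.2. In width, 5 were wider in Q7SST (15.2%, against 2.66%) and 1 in Q111SST (3.03%, against 2.69%).

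**Figure D3:**
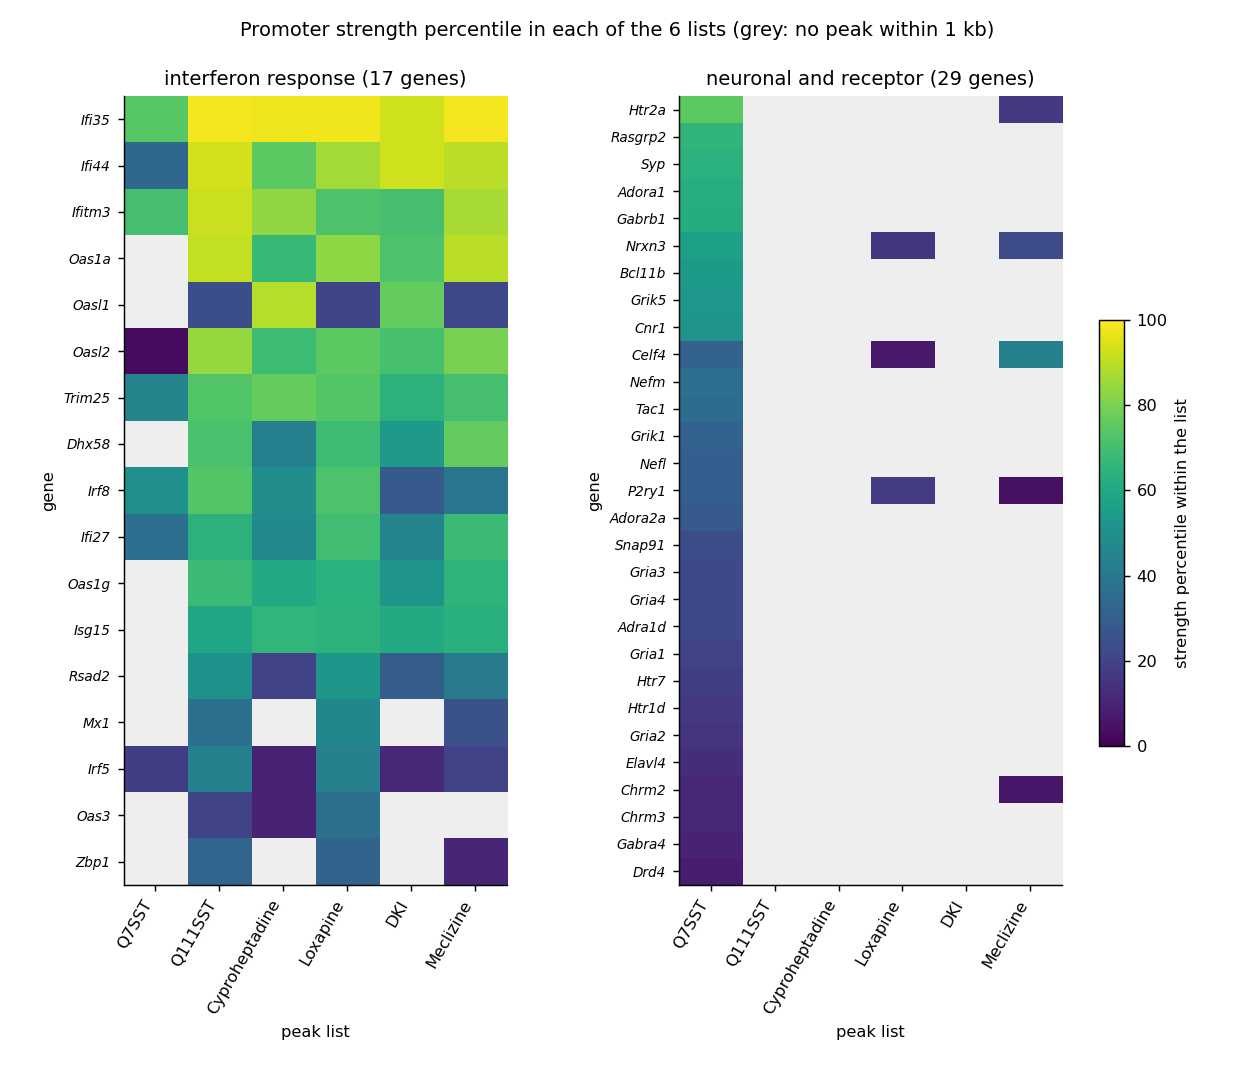
Strength percentile in the 6 lists for 17 interferon response genes marked in Q111SST only or higher there (left) and for 29 of the 30 neuronal or receptor genes marked in Q7SST only (right), as colour from 0 to 100, with unmarked promoters in grey. The interferon genes are mostly coloured across the 5 mutant lists, and 24 of the 29 neuronal or receptor genes are grey in all of them.

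Among channels and adhesion genes the lists differed. Of 35 marked potassium channel genes, 11 were marked in Q7SST only (31.4%, against 5.84% of all) and 2 in Q111SST only (5.71%, against 3.38%), and the 11 were in no mutant list, against 78.1% of all Q7SST-only promoters. Kcnf1, a modulatory subunit, was at percentile 71.9 in Q7SST, and Kcnq5, which carries a slow current that steadies the membrane potential, was at 72.7 in Q7SST and 22.4 in Q111SST. With peaks at or above the median score the count of 11 became 7. Of 16 marked sodium and calcium channel genes, 2 were marked in Q7SST only (12.5%, against 5.84%) and 1 in Q111SST only (6.25%, against 3.38%). The latter was Scn3a, at 97.2 and in all 5 mutant lists, and Scn2a was at 75.6 in Q7SST and 98.7 in Q111SST. Cadherin genes encode calcium-dependent adhesion proteins. Of 11 marked, 6 were marked in Q7SST only (54.5%, against 5.84%) and in no mutant list (Cdh1, Cdh9, Cdh10, Cdh11, Cdh12 and Cdh22). They were at percentiles from 11.4 to 49.1, all under percentile 50, where 1-line promoters were frequent in general. The Q7SST-only share over all promoters was 54.3% from 0 to 25 and 32.8% from 25 to 50. Of 19 marked clustered protocadherins, 9 were marked in Q7SST only (47.4%, against 5.84%), 4 in Q111SST only (21.1%, against 3.38%) and 6 in both. Pcdhgb2 was at 94.5 in Q7SST and in no mutant list, and Pcdhga3 was at 85.7 in Q111SST and between 65.8 and 69.2 in the compound lists. These genes stand in tandem on chromosome 18 and resemble each other in sequence, so their assignment is uncertain.

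Neural progenitor and patterning factors split by gene. Of 38 marked, 27 were marked in both lists, 9 in Q7SST only (23.7%, against 5.84% of all) and 2 in Q111SST only (5.26%, against 3.38%). At or above percentile 50, 3 of 26 were marked in Q7SST only (11.5%, against 1.88% of all, and 6.20% of all from 50 to 75). Nr2e1, the nuclear receptor that keeps neural stem cells dividing, was marked in Q7SST only, at percentile 71.9 with a peak of 1671 bp, and in no mutant list. Sall3, a zinc finger factor of early development, was likewise marked in Q7SST only, at 64.0. Nes, which encodes the intermediate filament nestin of neural progenitors, was at 90.7 in Q7SST and 41.9 in Q111SST. It was unmarked with cyproheptadine and at 68.5, 32.2 and 37.0 with loxapine, DKI and meclizine. Fabp7, a lipid carrier of radial glia, was at 71.5 and 39.4.

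Lhx2, a LIM homeobox factor of the forebrain, was at percentile 96.7 in Q7SST and 49.1 in Q111SST, but the strongest peaks lay at different starts of the gene, at chr2:38339643-38340550 and chr2:38350247-38351359. Otx1, another homeobox factor of the forebrain, went the other way, at 16.9 in Q7SST and 81.0 in Q111SST, with 64.5 to 77.5 in the compound lists. Meis2, a homeobox cofactor in striatal precursors, was at 25.2 in Q7SST with a peak of 1706 bp and at 56.2 in Q111SST with a peak of 5525 bp, the widest promoter peak of that list. In the compound lists its peak was 3353 to 3394 bp wide. Of 74 other homeobox genes marked, a list that includes some of these factors, 18 were marked in Q7SST only (24.3%, against 5.84% of all) and 5 in Q111SST only (6.76%, against 3.38%). At or above percentile 50 the Q7SST-only count was 1 of 40 (2.50%), near the 1.88% of all.

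Hox genes, which specify position along the body axis and are normally silent in the forebrain, ranked higher in Q111SST. Of 28 marked, 22 were marked in both lists and 3 in each line only (10.7% each, against 5.84% of all in Q7SST and 3.38% in Q111SST). Of the 22, 13 were higher in Q111SST (59.1%, against 3.75% of all) and 1 in Q7SST (4.55%, against 3.55%), and the median difference, Q7SST minus Q111SST, was -21.1 points. Hox genes stand in clusters, so the 13 are not independent. The median strength of the list was 56.1, against 83.5 over all marked promoters, and the share among promoters of like strength was not counted. Hoxa5 was at percentile 52.5 in Q7SST and 81.3 in Q111SST, and between 88.8 and 97.2 in the compound lists. Hoxa3 was at 38.9 and 76.6, with 71.5 to 79.5 in the compound lists. Hoxb3 was at 49.1 and 77.9, with 66.8 to 76.5. These 3 genes were nearer to Q111SST in each compound list. Hoxa4 was at 25.2 and 69.8, but at 30.4 with cyproheptadine and 34.8 with DKI, nearer to Q7SST. Hoxc6 was at 50.0 in Q7SST and 24.2 in Q111SST, and between 45.4 and 62.0 in the compound lists, so here Q111SST stood apart from the other mutant lists. The 13 became 5 with peaks at or above the median score, 8 with peaks over the start and 6 with percentiles taken among marked promoters.

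Matrix genes were split in both directions. Of 31 marked collagen genes, 7 were marked in Q7SST only (22.6%, against 5.84% of all) and 5 in Q111SST only (16.1%, against 3.38%), and all 5 of the latter were marked in all 5 mutant lists. Col1a2, which encodes a chain of fibrillar type I collagen, was at percentile 70.2 in Q111SST with a peak of 2364 bp, with a wild-type peak 1523 bp away from it. Col6a3, a chain of beaded-filament collagen, was at 69.8 in Q111SST and between 11.4 and 66.2 in the compound lists. The 7 of Q7SST only, among them Col4a3, Col4a4 and Col4a6 of basement membranes, were at percentiles from 15.1 to 50.8. At or above percentile 50, 1 of 22 collagen genes was marked in Q7SST only (4.55%, against 1.88% of all) and 4 in Q111SST only (18.2%, against 1.44%). From 50 to 75 the shares over all promoters were 6.20% and 4.03%. Of 27 laminin and integrin genes, 7 were marked in Q7SST only and 4 in Q111SST only (25.9% and 14.8%, against 5.84% and 3.38% of all). Among the 16 at or above percentile 50 there was 1 of each (6.25% each, against 1.88% and 1.44%). Of 37 matrix protease genes and inhibitors, 8 were marked in Q7SST only and 1 in Q111SST only (21.6% and 2.70%, against 5.84% and 3.38%). Among the 29 at or above percentile 50 the counts were 1 and 0 (3.45% and 0%, against 1.88% and 1.44%). The strongest of the 8 was Adamts9, a protease of proteoglycans, at 78.0 in Q7SST and in no mutant list.

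Housekeeping promoters were strong, with a median percentile of 88.4, and the share marked in 1 line only was that of strong promoters in general. In 5 lists together (cytosolic and mitochondrial ribosomal proteins, proteasome subunits, respiratory chain and sterol synthesis genes), 307 of 309 marked genes were marked in both lists, 2 in Q7SST only and none in Q111SST only, where all promoters from percentile 75 to 100 had 0.496% in Q7SST only and 0.617% in Q111SST only. None of the 307 was higher in either line, and the median difference, Q7SST minus Q111SST, was -1.79 points. All 65 marked replication-dependent histone genes were marked in both lists, with 7 higher in Q111SST (10.8%, against 3.75% of all) and 0 in Q7SST (3.55% of all). These 7 share peaks and bidirectional promoters in clusters and are not independent.

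At the huntingtin gene itself, Htt, the promoter was at percentile 74.5 in Q7SST and 79.4 in Q111SST, and at 69.7, 79.0, 61.3 and 90.3 with cyproheptadine, loxapine, DKI and meclizine. The rank in Q7SST thus fell inside the range of the mutant lists. Its width did not: the peak was 2268 bp in Q7SST, 1048 bp in Q111SST and 814 to 925 bp in the compound lists. Of the 26 promoters marked in either line within 1 Mb of Htt, 1 was marked in Q7SST only (Dok7) and 1 in Q111SST only, 3.85% each, near or below the 3.38% and 5.84% of all promoters in Q111SST and Q7SST only. The latter was Mfsd10, a membrane transporter gene 125 kb from Htt, at percentile 93.7 in Q111SST, between 85.9 and 92.3 in the compound lists, and with no Q7SST peak within 21657 bp.

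The promoters that differed most in rank were of several functions. Dazl, an RNA-binding gene of germ cells, was at percentile 91.1 in Q7SST and 4.91 in Q111SST, and among the compound lists it was marked with meclizine only, at 10.8. Nmnat3, which encodes an enzyme of NAD synthesis in mitochondria, was at 18.6 in Q7SST and 93.7 in Q111SST, with 74.3 to 87.0 in the compound lists. Aldh1a1, which makes retinoic acid, was at 6.14 and 77.9, with 72.6 to 80.1 in the compound lists. Mgst2, a microsomal glutathione transferase gene, was at 25.2 and 93.5, with 84.6 to 90.8. For the last 3 genes all compound lists lay nearer to Q111SST than to Q7SST.

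At the top of the promoters marked in 1 line only, Dnah7b, a dynein gene of cilia, was at percentile 95.4 in Q7SST, and among the mutant lists it was marked with meclizine only, at 21.8. Zfp605 was at 94.7, Plpp7 at 94.2 and Ano3 at 93.4 in Q7SST, and none of them was marked in a mutant list. A Q111SST peak lay 1302 bp from a Zfp605 start. In Q111SST, Mst1, Tep1 and Ap1g2 were at 93.7, 93.0 and 92.3 and were marked in all 5 mutant lists, between 80.5 and 93.7 in the compound lists. Mst1, which encodes a growth factor of the plasminogen family, had a Q7SST peak 1053 bp from its start, just beyond the window. Tep1 encodes a protein of vault particles and telomerase, and the nearest Q7SST peak lay 16172 bp away.

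Peak width picked out other genes. The growth factor gene Fgf7 had a peak of 197 bp at its start in Q7SST and one of 3987 bp in Q111SST, with 3703 to 4115 bp in the compound lists. Q7SST held 2 separate peaks of 1106 and 1631 bp further from the start, so part of the region was covered in pieces. At Kdm6a, which encodes a demethylase for lysine 27 of histone H3, the peak was 4387 bp in Q7SST and 666 bp in Q111SST, but Q111SST held a further peak of 2094 bp that began 1104 bp after the start, outside the window. With meclizine the Kdm6a peak was 3642 bp. At Nr2f2, a nuclear receptor of interneuron precursors, the peak was 5126 bp in Q7SST and 1900 bp in Q111SST, and 1774 to 2059 bp in the compound lists, while its percentile was higher in Q111SST, at 72.8 against 48.2. At Junb, an immediate early gene, the peak was 2238 bp in Q7SST and 5353 bp in Q111SST, but 1081 to 2612 bp in the compound lists, so the wide peak was found in the vehicle-treated mutant list only.

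**Figure D4:**
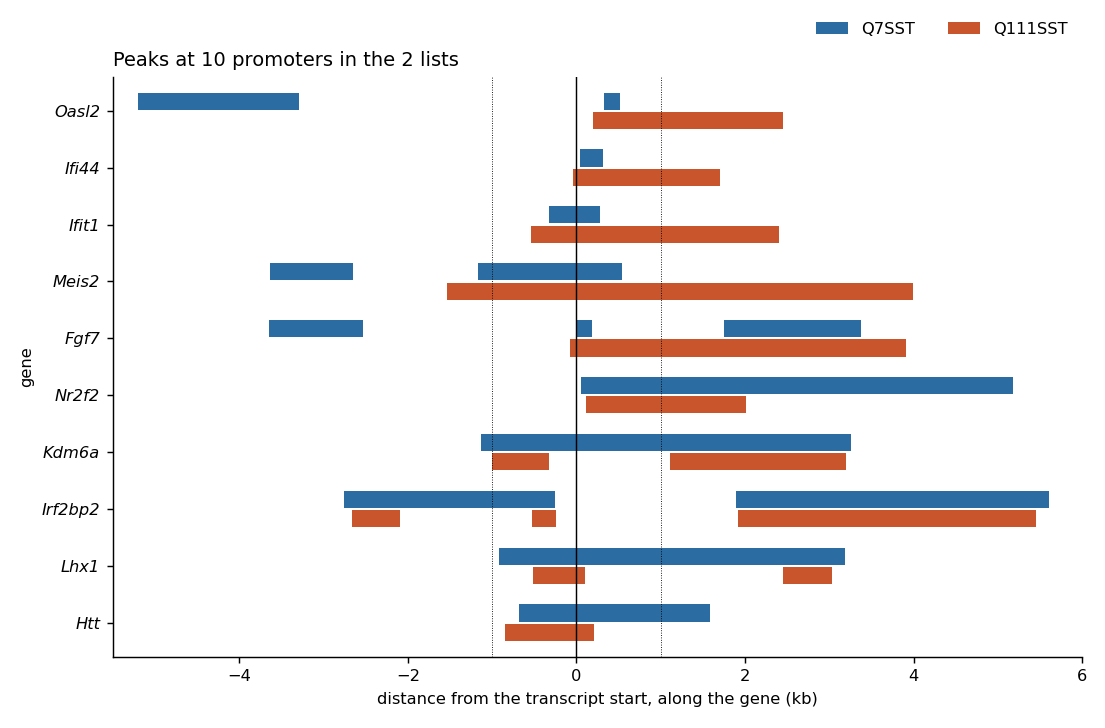
Extent of the peaks near the start of selected genes in Q7SST and Q111SST, in kb from the start along the direction of transcription. Bars are drawn to scale, and dotted lines mark the 1 kb window. The Ifit1, Meis2 and Fgf7 bars are longer in Q111SST, and the Nr2f2, Lhx1 and Htt bars are longer in Q7SST.

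Runs of at least 2 neighbouring marked genes that were both marked in the same line only numbered 44 in Q7SST, with 91 genes, and 24 in Q111SST, with 49 genes, and the longest held 3 genes. In 9 and 4 of these runs the neighbours shared a single peak, and whether runs were more frequent than for any such number of promoters was not tested. In Q7SST, Lgr5, Tspan8 and Ptprr formed a run at chr10:115450311-116274932, at percentiles 46.4, 18.6 and 71.9. Lgr5 is a Wnt pathway receptor of stem cells. The cadherin genes Cdh9, Cdh10 and Cdh12 formed another at chr15:16728756-21589533. In Q111SST, the serpin genes Serpinb9d, Serpinb9e and Serpinb9f formed a run at chr13:33192959-33335370, at percentiles 14.9, 3.23 and 29.3, and 6 of the 13 marked promoters between 32 and 34 Mb of that chromosome were marked in Q111SST only. These are close paralogs. On chromosome 14, between 54 and 56 Mb, 7 of 54 were marked in Q111SST only, against 3.38% of all promoters, among them Ripk3, a kinase of necroptosis, and 1 in Q7SST only. Both windows were chosen because their counts were among the highest.

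The authors list both lines as female, yet Q7SST and Q111SST held 32 and 37 peaks on Y, and the cause was not tested. Among the chromosomes, leaving aside Y with 3 marked promoters, X had the median furthest from 0. The median difference in percentile, Q7SST minus Q111SST, was -6.10 points over the 365 promoters of X marked in both lists, with 31 higher in Q111SST and 11 in Q7SST, where the shares over all promoters were 3.75% and 3.55%. On the autosomes the median lay between -2.97, on chromosome 13, and 2.28, on chromosome 17.

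Base composition, which had no part in the choice, differed between the classes. The CpG ratio (CpG count over that expected from the C and G content, in 1 kb around the start) had a median of 0.746 at promoters marked in both lists, 0.574 at those of Q7SST only and 0.365 at those of Q111SST only. The share at or above 0.6 was 78.0%, 45.8% and 24.4%. Between percentiles 25 and 50 the medians were 0.644, 0.601 and 0.331, in the same order. Between 75 and 100 the order of the 1-line classes was turned, with 0.754 for both, 0.477 for Q7SST only and 0.507 for Q111SST only. Of 3428 CpG-poor promoters marked in either line, 12.3% were marked in Q7SST only and 9.95% in Q111SST only, and of 9919 CpG-rich ones 3.60% and 1.11%.

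The 200 bases before the start are shown for 3 genes, with CpG in capitals, because they stand for the CpG-rich regulators marked in Q7SST only (Nr2e1 and Bcl11b) and for a CpG-poor promoter marked in Q111SST only (Mst1).
Nr2e1: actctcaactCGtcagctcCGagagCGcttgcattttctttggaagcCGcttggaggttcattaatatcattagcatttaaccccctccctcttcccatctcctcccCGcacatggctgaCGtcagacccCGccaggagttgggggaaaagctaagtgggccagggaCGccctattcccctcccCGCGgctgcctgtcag
Bcl11b: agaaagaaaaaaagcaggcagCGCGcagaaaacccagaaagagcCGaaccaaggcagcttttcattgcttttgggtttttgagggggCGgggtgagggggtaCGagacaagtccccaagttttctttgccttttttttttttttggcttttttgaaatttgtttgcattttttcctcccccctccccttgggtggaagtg
Mst1: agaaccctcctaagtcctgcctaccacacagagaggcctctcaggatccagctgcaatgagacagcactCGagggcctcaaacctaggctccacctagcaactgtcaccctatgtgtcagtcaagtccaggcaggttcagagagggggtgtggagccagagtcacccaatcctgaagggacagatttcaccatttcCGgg
These stretches, from GRCm38, lie at chr10:42583633-42583832 and chr12:108003603-108003802 on the minus strand, and at chr9:108080236-108080435 on the plus strand. Nr2e1, Bcl11b and Mst1 held 10, 5 and 2 CpG sites, and their CpG ratio over 1 kb was 0.700, 0.790 and 0.187.

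Short motifs were counted in the 300 bases around the start. The interferon core GAAANNGAA was found in 6.62% of promoters marked in both lists, 6.28% of those of Q7SST only and 11.3% of those of Q111SST only, and in 9.95% of the latter outside the interferon list. Among CpG-poor promoters it was found in 9.68%, 7.57% and 14.1% in the same order. The AP-1 site TGANTCA was found in 6.57% of all transcript starts, and in 4.38%, 7.56% and 11.1% of the classes. It was found in 9.25% of promoters higher in Q111SST and 4.65% of those higher in Q7SST. The GC box GGGCGG, in 43.1% of all starts, was found in 68.1%, 51.5% and 41.2%, and the TATA box TATAAA, in 11.3% of all starts, in 5.77%, 8.46% and 10.9%. Among CpG-poor promoters alone the shares lay closer together for these 3 motifs, at 7.66%, 9.69% and 13.2% for the AP-1 site, 47.1%, 36.2% and 31.4% for the GC box and 7.96%, 9.69% and 11.4% for the TATA box. Each motif was searched on both strands, and a match is a description of the letters and not of a bound site.

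**Figure D5:**
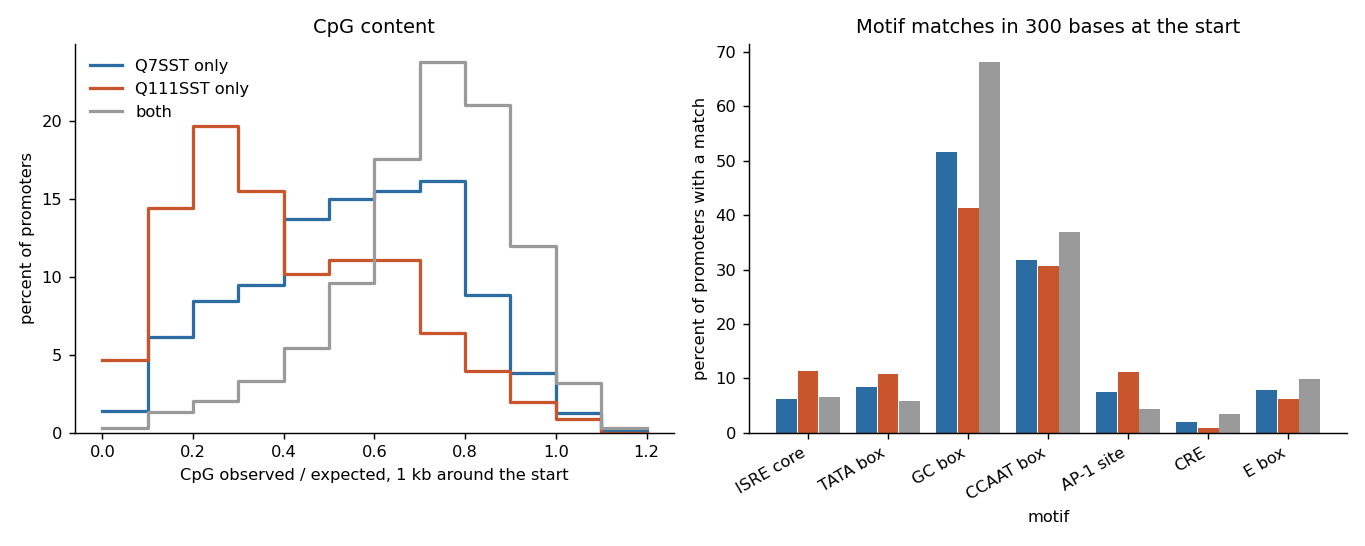
Left, share of promoters in percent by CpG ratio, for promoters marked in both lists, in Q7SST only and in Q111SST only. Right, percent of promoters of each class that hold each motif in the 300 bases around the start. The Q111SST-only curve peaks at ratios of 0.2 to 0.3, and among the 3 classes its bars are the tallest for the interferon core (ISRE core), the TATA box and the AP-1 site.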

How the data were processed

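H3K4me3 ChIP-seq of the STHdhQ7 and STHdhQ111 lines (1 deposited peak list each) was compared, with the 4 compound lists as side values. The authors crosslinked cells, digested chromatin with MNase and sequenced single-end reads. The submitters' processing notes name mm10, Trimmomatic 0.36, Bowtie2, SAMtools 1.3 and MACS2, with no roles given. Peak threshold, control, pooling of the treated wells and the scale of the score column are not given in the sources used here. The deposited values are the authors' peak coordinates and a score per peak, used only as ranks within a list.

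Peaks were assigned to protein-coding transcript starts (GENCODE vM21, 54355 starts) within 1000 bp with Python 3.11.15, pandas 2.3.3 and numpy 2.4.6. Intervals are 95% Wilson intervals and cover counting error only. A single list stood for each condition, so replicate error could not be measured and no test was run. The counting was tested on simulated lists. The members and the 56 gene lists were chosen with earlier results of these data known. Symbols caught by error in the homeobox and integrin patterns were taken out after values were seen, and the promoters around Htt were also looked at then. The genes named in the text were drawn from, without naming all of, the 10 strongest promoters of each line only, the 8 with the largest rank differences per direction, the 8 with the largest width ratios per direction where the wider peak was at least 2 kb (all leaving out Gm-numbered and Rik symbols, genes that share a peak counted once), the 8 widest peaks of each line, up to 6 one-line and 4 rank-shifted members of each gene list per direction, the 5 longest runs per direction, Htt and the cell type markers; other members are named as examples chosen after their values were seen. Many genes that this rule selects, among them most of those with the largest rank and width differences, are not reported here. Sequence came from GRCm38, over 300 bases for motifs and 1000 bases for CpG. The alternatives were peaks at or above the median score, lists of equal size, windows of 0 and 5 kb, peaks within 1 kb merged, no peak within 5 kb in the other list, percentiles among marked promoters, the summed width of all peaks within 1 kb and width ratios divided by their median.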

Additional observations from a re-analysis of the deposited data

How the results depend on the processing

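No paired analysis was possible because there were no replicates (1 list for each condition), and leaving out a replicate was not possible for the same reason. Of the values that answer the comparison, 35 stayed within 1.5 times of their count, or within the interval of their share, and 15 moved. With peaks at or above the median score, 1050 promoters ranked higher in Q111SST against 533 in Q7SST, 130 and 168 were wider in Q7SST and Q111SST, 73.6% of Q7SST-only promoters were unmarked in all 5 mutant lists and 32.4% of Q111SST-only promoters were marked in all 5. With lists of equal size, at 38392 peaks for the vehicle lists and 30758 for all 6, the latter share was 54.1%. With peaks over the start (0 kb), 248 promoters ranked higher in Q7SST, 147 and 174 were wider, and the shares were 65.1% and 29.9%. With starts within 5 kb the shares were 73.9% and 40.2%. With percentiles taken among marked promoters, 1058 ranked higher in Q7SST and 800 in Q111SST, so the side with more promoters higher differed between scalings. The cause was not tested.

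Of the counts of single gene lists, each taken in 1 direction only, 63 stayed within 1.5 times and 10 moved. The 9 interferon promoters marked in Q111SST only became 5 with starts within 5 kb, and the 8 higher in Q111SST became 4 with peaks over the start. Of the 10 strongest promoters of each line only, all 10 kept their class at the median score, at equal size and with merged peaks, and 7 (Q7SST) and 8 (Q111SST) did so at 0 kb and at 5 kb. The number of reads is unknown, so the depth needed to call weak peaks could not be compared.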
